A study of Mus musculus with 4 samples.

Results

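Tripartite motif (Trim) genes encode RING-finger proteins, most of them ubiquitin ligases, that act in antiviral defence and in the control of innate immune signalling. In the mouse, a stretch of chromosome 7 holds the relatives of primate TRIM5 and TRIM34 together with the Trim30 group, and several of these genes are known to be induced by interferon. Trim11 lies apart from them on chromosome 11. The genes described here are 6 of the 32285 genes in the expression files: Trim34a, Trim12a, Trim12c, Trim30a and Trim30d of the chromosome 7 stretch, and Trim11. They were picked by symbol after KO to WT ratios in B cells of these libraries had been seen, so the KO to WT ratios of the members are a description and carry no test.

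CD45-positive cells were sorted from the peritoneal lavage fluid of knockout (KO) and wild-type (WT) mice. All mice received a high-fat diet, which began at 4 weeks of age and lasted 3 months. The deleted gene is not named here, and how many mice went into a library is not stated in the labels. Each genotype had 1 droplet expression library and 1 B-cell receptor library. A difference between genotypes therefore cannot be told apart from a difference between 2 libraries.

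The KO library held 22516 barcodes with a median of 3298 unique molecular identifiers (UMIs), and the WT library 10087 barcodes with a median of 6362. Barcodes were gated on lineage markers into 6 classes, which took 52.7% of KO and 65.3% of WT barcodes. B-1 barcodes, the B-1-like cells of body cavities, numbered 3192 in KO and 2163 in WT. B-2 barcodes, the conventional type, numbered 4966 in KO and 2376 in WT, and T barcodes 2832 in KO and 1625 in WT. NK barcodes numbered 430 in KO and 285 in WT, macrophage barcodes 263 in KO and 71 in WT, and dendritic barcodes 194 in KO and 66 in WT. The defining markers followed the gates: Cd79a, a subunit of the B-cell receptor, was at 4300.6 CPM (UMIs of a gene relative to all UMIs of its class) in KO and 3613.9 CPM in WT B-1 barcodes. RNA of other cells was also present: Cd79a stood at 83.2 CPM in KO and 18.3 CPM in WT T barcodes, whereas 2 mast cell markers together stood at 0.682 CPM in KO and 6.55 CPM in WT T barcodes. The 6 macrophage markers together stood at 10.8 CPM in KO and 3.52 CPM in WT B-1 barcodes, against 7954.7 CPM in KO and 6390.1 CPM in WT macrophage barcodes. Of the barcodes, 293 had the same sequence in both libraries, 1.30% of KO and 2.90% of WT, and 0 of the 91 with a single heavy chain in both had the same heavy chain.

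The start regions of the chromosome 7 members are shown first because the interferon values below bear on them. Windows around the annotated gene start, from RefSeq on build GRCm38.p6, were found for 5 of the 6 members. All 5 held GAAANNGAAA or its reverse complement TTTCNNTTTC, the core of the element bound by interferon regulatory factors. Both strands were searched, and overlaps with other motifs were not considered. The match lies in capitals within the gene strand, written 5′ to 3′, with Trim5, a gene of the same stretch, added for comparison.
Trim34a, chr7:104244427-104244506, plus strand: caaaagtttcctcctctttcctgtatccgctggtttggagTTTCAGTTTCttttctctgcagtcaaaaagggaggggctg
Trim12a, chr7:104315446-104315525, minus strand: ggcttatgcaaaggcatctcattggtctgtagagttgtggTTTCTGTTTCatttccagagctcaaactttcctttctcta
Trim12c, chr7:104353329-104353418, minus strand: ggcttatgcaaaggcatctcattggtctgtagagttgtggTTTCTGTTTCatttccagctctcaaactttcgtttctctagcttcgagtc
Trim30a, chr7:104465180-104465269, minus strand: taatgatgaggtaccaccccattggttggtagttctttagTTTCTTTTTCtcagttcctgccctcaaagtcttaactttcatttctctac
Trim30d, chr7:104507841-104507930, minus strand: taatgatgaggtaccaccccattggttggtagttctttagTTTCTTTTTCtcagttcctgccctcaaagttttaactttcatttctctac
Trim5, chr7:104288106-104288195, minus strand: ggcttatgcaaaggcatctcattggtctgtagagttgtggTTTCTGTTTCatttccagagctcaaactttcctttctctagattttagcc

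The printed stretches fell into 3 kinds. Those of Trim30a and Trim30d differed at 1 of 90 bases, and their whole windows were 90.8% identical. The 80 bases of Trim12a differed from Trim12c at 3 bases and from Trim5 at 0, while Trim34a carried another version. The match began 29, 36 and 41 bases before the annotated start in Trim12c, Trim30a and Trim30d, and 10 bases after it in Trim34a and Trim12a. The same letters occurred in the windows of 3.99% of all genes (1079 of 27025), in 8.33% of the other Trim genes with a window (4 of 48), and in 58.3% of a list of interferon-induced genes (21 of 36). Trim30b, Trim30c and Trim34b, which lie in the same stretch, had no match in their windows.

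Trim11 encodes a ubiquitin ligase that is known in human cells to restrain the AIM2 inflammasome. It stood at 149.8 CPM in KO and 86.8 CPM in WT B-1 barcodes, from 3112 and 2073 UMIs, a ratio of 1.73 (95% counting interval 1.63 to 1.83). The B-2 gate held 127.0 CPM in KO and 74.4 CPM in WT, a ratio of 1.71 (1.58 to 1.84). In T barcodes the values were 36.6 CPM in KO and 28.5 CPM in WT, a ratio of 1.28 (1.07 to 1.54). Trim11 was thus a gene of the B-cell gates in both libraries, and its level in B-1 stood above that in B-2, which stood above all 4 other classes, with no overlap of intervals between these steps. NK barcodes were at 35.6 CPM in KO and 34.3 CPM in WT, and macrophage and dendritic barcodes were at 13.7 to 22.1 CPM, with every ratio interval holding 1.

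Trim34a, the mouse relative of human TRIM34, which acts with TRIM5 against some lentiviral capsids in human cells, was also highest in B cells. It reached 74.8 CPM in KO and 47.1 CPM in WT B-2 barcodes, a ratio of 1.59 (1.44 to 1.75), and 54.3 CPM in KO and 32.2 CPM in WT B-1 barcodes, a ratio of 1.68 (1.53 to 1.85). T barcodes had 21.6 CPM in KO and 12.4 CPM in WT, a ratio of 1.73 (1.33 to 2.26). The level in B-2 stood above B-1 in both libraries, and B-1 above every other class, without overlap. Dendritic barcodes gave only 4 UMIs in each library, and Trim34a did not reach 10 CPM there in either.

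Trim12a is a mouse relative of TRIM5, the capsid-binding restriction factor of primates. Its highest level was in NK barcodes, at 116.9 CPM in KO and 86.4 CPM in WT. The KO values were above the WT values in all 6 classes. B-1 barcodes had 58.5 CPM in KO and 35.5 CPM in WT, a ratio of 1.65 (1.51 to 1.80). In B-2 barcodes the levels were 70.8 CPM in KO and 41.6 CPM in WT, a ratio of 1.70 (1.54 to 1.89). In T barcodes they were 71.6 CPM in KO and 39.8 CPM in WT, a ratio of 1.80 (1.56 to 2.08). The NK ratio was 1.35 (1.01 to 1.82), and the macrophage and dendritic ratios, 1.22 and 1.56, had intervals that held 1. Levels in B-2 and T barcodes could not be ordered, since their intervals overlapped in both libraries.

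Trim12c, another relative of TRIM5 that is known in mouse cells to act with Traf6 in interferon and NF-kB signalling, had ratios nearer 1 in B and T barcodes than Trim12a. It was at 36.3 CPM in KO and 31.2 CPM in WT B-1 barcodes, with a ratio of 1.16 (1.05 to 1.29). The ratio was 1.06 (0.942 to 1.20) in B-2 and 1.14 (0.948 to 1.38) in T barcodes. NK barcodes had 81.3 CPM in KO and 43.2 CPM in WT, from 73 and 44 UMIs, a ratio of 1.88 (1.28 to 2.80). In KO the NK level stood above those of the other classes, whereas in WT it overlapped that of B-2.

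Trim30a is an interferon-induced gene whose protein is known in mouse macrophages to limit Toll-like receptor signalling by promoting loss of Tab2 and Tab3. It was at 36.1 CPM in KO and 33.2 CPM in WT B-1 barcodes, a ratio of 1.09 (0.982 to 1.20), and at 43.1 CPM in KO and 34.5 CPM in WT B-2 barcodes, a ratio of 1.25 (1.11 to 1.41). T barcodes gave 1.11 (0.928 to 1.32). The highest class was macrophage in KO, at 62.7 CPM, and dendritic in WT, at 59.5 CPM, but neighbouring classes overlapped throughout the order in both libraries. In dendritic barcodes the values were 40.9 CPM in KO and 59.5 CPM in WT, a ratio of 0.689 (0.441 to 1.08). Among the alternative settings named below, that ratio was lowest under a stricter gate, at 0.329 (0.140 to 0.714) with 59 KO and 26 WT barcodes. It was highest under a gate by dominance of 1 lineage, at 0.779.

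Trim30d, also known as Trim79, restricts tick-borne flaviviruses in mouse cells. It was scarce, at 16.8 CPM in KO and 8.87 CPM in WT B-1 barcodes, from 349 and 212 UMIs, a ratio of 1.89 (1.59 to 2.26). The B-2 gate had 16.5 CPM in KO and 6.98 CPM in WT, a ratio of 2.36 (1.86 to 3.03), and the T gate 10.2 CPM in KO and 4.81 CPM in WT, a ratio of 2.13 (1.41 to 3.26). NK barcodes held only 12 UMIs in KO and 5 in WT, a ratio of 2.72 (0.893 to 9.86). In macrophage barcodes it was at 17.3 CPM in KO and 17.7 CPM in WT, where 5 of the 12 WT UMIs lay in a single barcode, and the ratio was 1.53 when the top barcode of each library was left out. The ratio intervals of the close copies Trim30a and Trim30d did not overlap in B-1, B-2 or T barcodes at full depth, but overlapped in all 3 after the thinning described below.

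**Figure D1:**
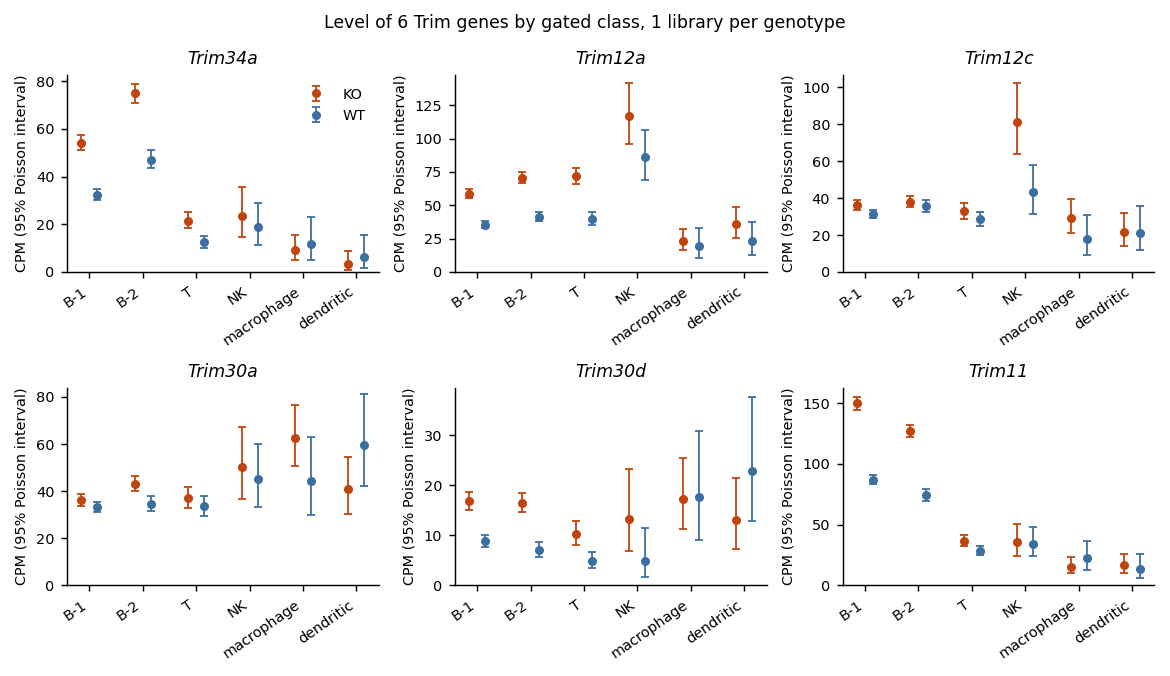
Level of each gene (CPM, vertical axis from 0) in the 6 gated classes, KO left of WT, with exact Poisson 95% intervals that cover counting error only. Trim11 and Trim34a are high in B-1 and B-2 barcodes, Trim12a and Trim12c are highest in NK barcodes, and the highest class of Trim30a and of Trim30d overlaps the next in both libraries.

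A gene was called higher in KO where its ratio was at least 1.5 and its interval lay wholly above 1, among genes that reached 10 CPM in either library. By this rule 4 of the 6 members were called higher in B-1 barcodes, namely Trim34a, Trim12a, Trim30d and Trim11, where 1.78% of 7307 genes were. The same 4 were called in B-2 barcodes, where 0.863% of 7536 genes were. In T barcodes 3 were called, the same genes without Trim11, beside 3.05% of 7800 genes. Trim30d passed the floor in B-1, B-2 and T barcodes only through KO, the library where it was higher. Its WT levels there were 8.87, 6.98 and 4.81 CPM. Trim12c was the only one called in NK barcodes, beside 3.56% of 8191 genes. None was called in macrophage or dendritic barcodes, beside 3.23% and 3.21%, and intervals there were wide. With a floor of 50 CPM, which Trim30d does not reach, 3 members were called in B-1, beside 1.12% of 2676 genes, and 3 in B-2 barcodes, beside 0.349% of 2868 genes. Trim12a alone was called in T barcodes at that floor, beside 1.13% of 3088 genes. No member was called lower in any class, where the shares of all genes called lower were 0.684% in B-1, 0.703% in B-2, 1.01% in T, 2.28% in NK, 3.47% in macrophage and 4.98% in dendritic barcodes. The members were chosen on this contrast, so these shares give the setting and no evidence.

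**Figure D2:**
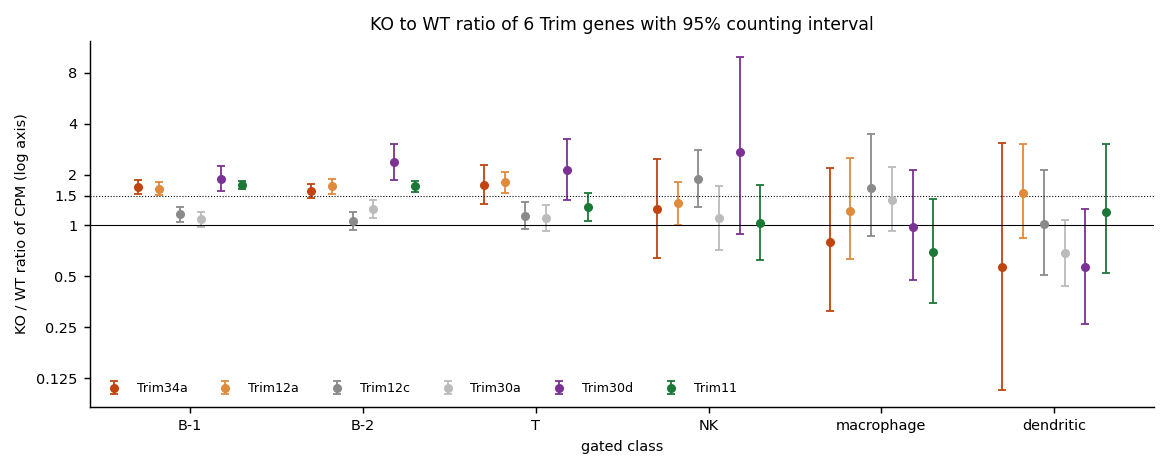
KO to WT ratio of CPM (vertical log axis) for each gene in each gated class, with exact conditional binomial 95% intervals. The solid line marks 1 and the dotted line 1.5. Trim34a, Trim12a, Trim30d and Trim11 lie above 1.5 in B-1 and B-2 barcodes, while Trim12c and Trim30a lie between 1.06 and 1.25 there.

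Depth per barcode moved with genotype, at a median of 5492.5 UMIs in KO and 9400 in WT B-1 barcodes, so ratios were also taken with each barcode thinned to 1000 UMIs. In B-1 barcodes the thinned ratio was 1.56 for Trim11 and 1.90 for Trim30d, but 1.29 (0.990 to 1.69) for Trim34a and 1.47 (1.14 to 1.92) for Trim12a, which ended their calls. Trim30a, not called, was at 1.39 (1.03 to 1.90) after thinning, an interval that overlapped that of Trim34a. In B-2 barcodes all 4 calls were kept, at 1.68 for Trim34a, 1.84 for Trim12a, 1.91 for Trim30d and 1.55 for Trim11. In T barcodes Trim12a kept its call at 1.73, while Trim34a was under the limit at 1.40 and the interval for Trim30d held 1. The NK call of Trim12c was likewise lost, at 1.67 (0.798 to 3.75). The share of barcodes with a UMI, after the same thinning, was 12.9% in KO and 8.74% in WT for Trim11 in B-1, and 6.89% in KO and 3.76% in WT for Trim12a in B-2 barcodes. Unthinned, these shares were 52.3% in KO and 53.6% in WT for Trim11, and 22.0% in KO and 18.1% in WT for Trim12a. Median depth in B-2 was 3005 UMIs in KO and 4355.5 in WT, and none of the 6 classes is known to lack either gene, so no background share can be set beside these values.

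Other cells' RNA and expanded clones were also looked at. A stricter gate allowed 0 UMIs of B-cell or other lineage markers in T barcodes and raised the lowest T-marker count by 1. It left 1443 KO and 1223 WT T barcodes, with ratios of 1.55 for Trim34a, 1.76 for Trim12a and 2.60 for Trim30d. With 1 barcode kept per heavy-chain clone, 1211 in KO and 954 in WT, the B-1 ratios were 1.62, 1.58, 1.73 and 1.64 for Trim34a, Trim12a, Trim30d and Trim11. No single barcode held more than 1.89% of the UMIs of a member in B-1 barcodes.

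The other Trim genes were set beside the members to see how far the pattern went. The files list 62 of them, of which 18 reached 10 CPM in B-1 barcodes. Of these, 2 were called higher and 0 lower in B-1 barcodes, beside 1.78% and 0.684% of all genes. Again 2 of 18 were called higher and 0 lower in B-2 barcodes, beside 0.863% and 0.703%. Their median log2 ratio was 0.05 in B-1, beside 0.04 for all genes, and -0.03 in B-2, beside -0.01. The 2 genes called were Trim5 and Trim30b, both of the chromosome 7 stretch. Trim5 was at 29.1 CPM in KO and 15.5 CPM in WT B-1 barcodes, a ratio of 1.88 (1.65 to 2.15), and had ratios of 1.91 in B-2, 2.31 in T and 4.54 (1.94 to 12.3) in NK barcodes. Trim30b was at 28.5 CPM in KO and 16.4 CPM in WT B-1 barcodes, a ratio of 1.74 (1.53 to 1.98), and had a ratio of 1.61 in B-2, while T barcodes held 6 UMIs of it in KO and 0 in WT. The other 16 genes had B-1 ratios between 0.85 and 1.28. Among them Trim25, the ligase that acts on the RNA sensor RIG-I, was at 101.7 CPM in KO and 94.8 CPM in WT, and Trim28, a corepressor, at 71.1 CPM in KO and 78.9 CPM in WT (both named after their values were seen).

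**Figure D3:**
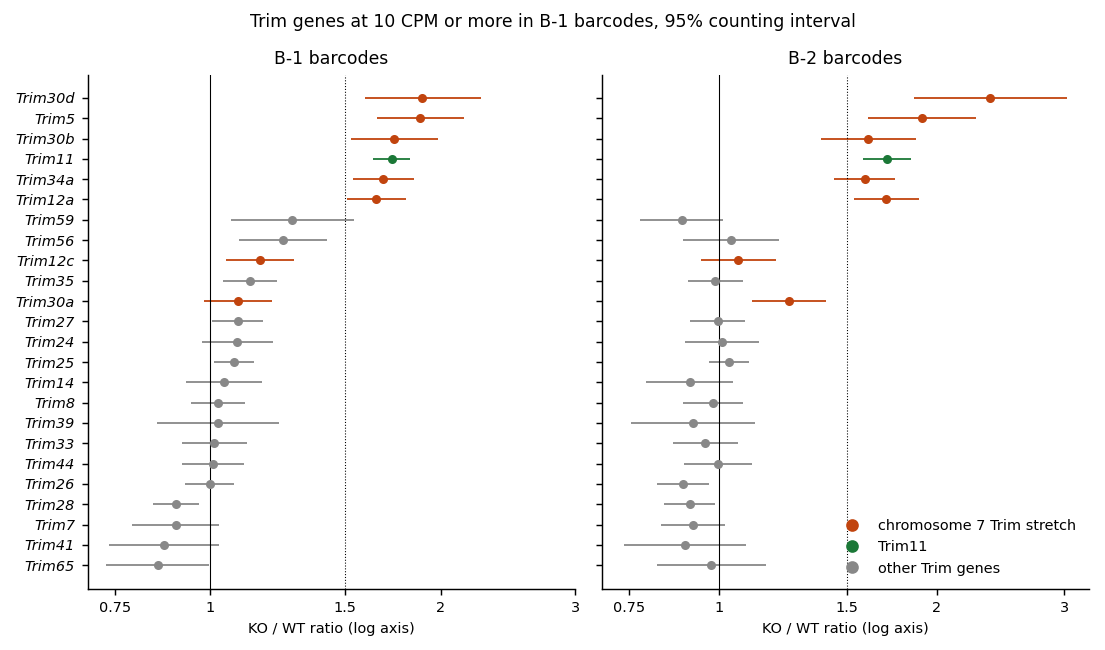
KO to WT ratio (horizontal log axis) of the Trim genes at 10 CPM or more in B-1 barcodes, shown for B-1 (left) and B-2 barcodes (right), with 95% counting intervals. Genes are ordered by their B-1 ratio. The 6 highest in B-1 are Trim30d, Trim5, Trim30b, Trim11, Trim34a and Trim12a, of which Trim11 alone lies outside the chromosome 7 stretch.

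In the RefSeq order of protein-coding genes, the chromosome 7 members lie within a run of 10 genes, in the order Trim34a, Trim5, Trim12a, Trim34b, Trim12c, Gm38525, Trim30b, Trim30c, Trim30a and Trim30d. Genes called higher in B-1 barcodes therefore alternated with genes that were not: Trim12c lay between Trim12a and Trim30b, and Trim30a beside Trim30d. Trim30c, with 4.77 CPM in KO and 6.32 CPM in WT B-1 barcodes, had a ratio of 0.754 (0.579 to 0.978). Trim34b gave 1 UMI in KO and 7 in WT (both named after their values were seen). The run is bounded by the first and last member, and how far Trim6 lies from it is not given here. Trim6, below 10 CPM, went the other way (also named after its values were seen). It gave 36 UMIs in KO and 23 in WT B-1 barcodes, a ratio of 1.80 (1.04 to 3.18). B-2 barcodes held 21 UMIs of Trim6 in KO and 4 in WT. Other Trim genes below 10 CPM in B-1 barcodes included Trim36 at 2.30 (1.14 to 4.88) and Trim16 at 2.43 (1.05 to 6.09). Trim21 was at 0.959 and Trim62 at 0.953 there (all 4 named after their values were seen). The nearest genes outside the run that reached 10 CPM had B-1 ratios near 1. On one side these were Rrm1 at 0.942, Stim1 at 1.01 and Rhog at 1.06, and on the other Smpd1 at 1.16, Arfip2 at 1.04 and Timm10b at 0.975. Rrm1 lay 106 genes away and Smpd1 44, and 45 of the 85 genes listed within 20 places of a member are olfactory receptor genes. The neighbours of Trim11 were lower or level in KO, at 0.883 for Rnf187 and 0.988 for Mrpl55. Within 20 genes of any member, 80 genes were in the files and 9 reached 10 CPM in B-1 barcodes. Of these, 2 were called higher and 0 lower, beside 1.78% and 0.684% of all genes. The 2 were again Trim5 and Trim30b, already counted among the other Trim genes. In B-2 barcodes 2 of 11 were called higher and 1 lower, beside 0.863% and 0.703%.

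**Figure D4:**
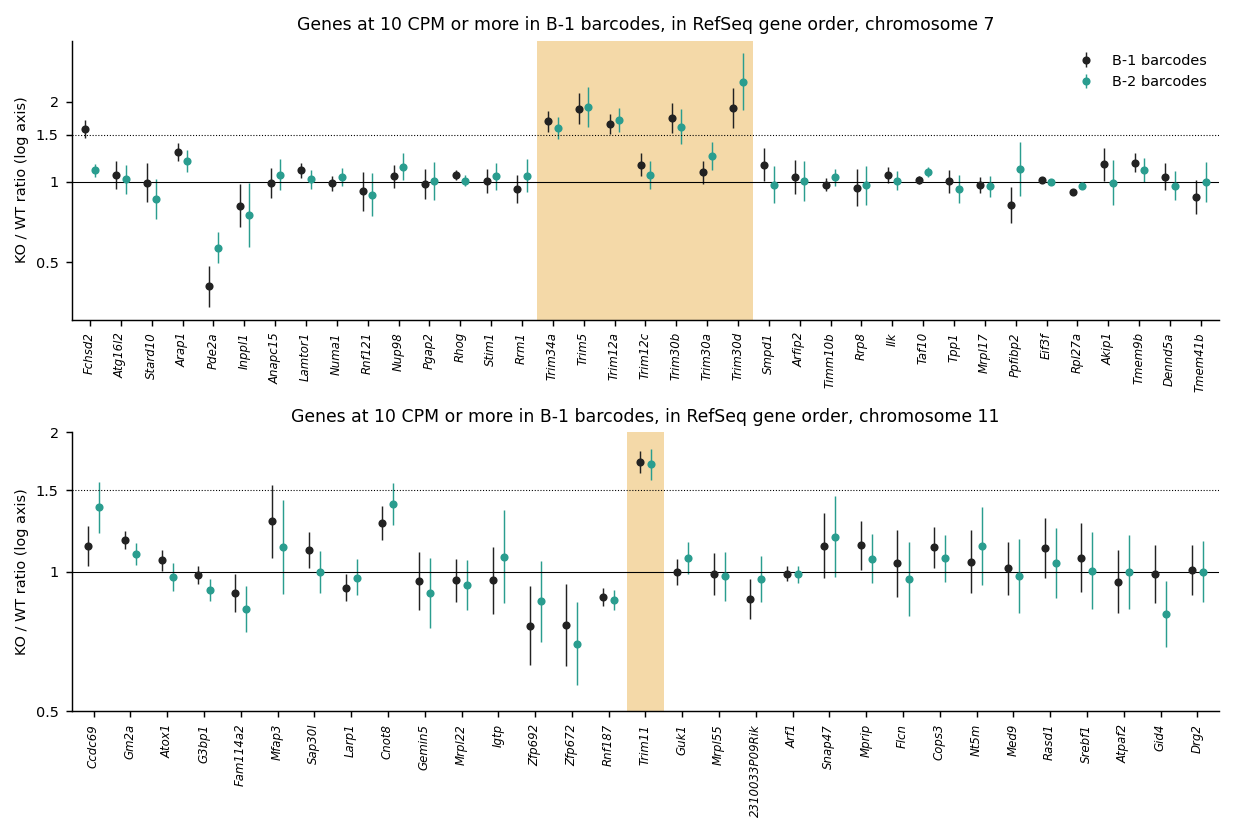
KO to WT ratio (vertical log axis) of genes at 10 CPM or more in B-1 barcodes, in gene order along chromosome 7 (top) and chromosome 11 (bottom), for B-1 and B-2 barcodes with 95% counting intervals. Shading marks the Trim genes, and the horizontal axis counts genes and not distance. Trim34a, Trim5, Trim12a, Trim30b and Trim30d lie above 1.5 in B-1 barcodes, as does Fchsd2 at 1.58, further out on chromosome 7. Pde2a lies at 0.407, and the flanking Rrm1 and Smpd1 at 0.942 and 1.16.

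Copies in the stretch share sequence, which limits how reads can be assigned. Of all stretches of 90 bases in the longest coding transcript (GENCODE M21), 25.8% of those of Trim34a also occur in Trim34b, and 10.1% of those of Trim12a occur in Trim5 or Trim12c. The share was 10.4% for Trim12c, 5.05% for Trim30a, 5.83% for Trim30d and 0% for Trim11. In the last 500 bases of the transcript the share was 0% for all 6 members. In the first 500 it was 21.7% for Trim12a, 15.3% for Trim12c and 34.1% for Trim5. It was 0.487% there for Trim34a and 0% for Trim30a, Trim30d and Trim11. The labels name a 3′ kit, but the receptor libraries share barcodes with the expression libraries, which points to 5′ reads. Of 3192 KO B-1 barcodes, 2031 had 1 heavy chain there. Which end was read was not tested. For 5′ reads the shares in the first 500 bases apply, so the split between Trim12a, Trim12c and Trim5 is uncertain.

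Since several members are known to be induced by interferon, a list of 50 interferon-induced genes with no Trim gene in it was examined. In B-1 barcodes 27 of the 48 in the files reached 10 CPM. Of these, 1 was called higher and 0 lower, beside 1.78% and 0.684% of all genes. Their median log2 ratio was 0.06, beside 0.04 for all genes. The gene called was Ifitm3, which blocks viral entry, at 14.7 CPM in KO and 3.18 CPM in WT. Ifitm3 is also abundant in macrophage barcodes, at 4400.7 CPM in KO and 4893.8 CPM in WT, and Lyz2, a myeloid marker, was likewise higher in KO B-1 barcodes, at 44.0 CPM in KO and 3.77 CPM in WT. The part of macrophage RNA in the Ifitm3 ratio was not tested. The next highest genes were Irgm1 at 1.26 and Slfn5 at 1.22, and the lowest were Ifi27l2a at 0.734, Irf1 at 0.795 and Irf9 at 0.819. In B-2 barcodes 1 of 28 was called higher and 1 lower, beside 0.863% and 0.703% of all genes. In T barcodes 1 of 36 was called higher and 1 lower, beside 3.05% and 1.01%. In macrophage barcodes 0 of 43 were called higher and 17 lower, beside 3.23% and 3.47% of all genes. Their median log2 ratio was -0.59, beside 0.04 for all genes. In dendritic barcodes 0 of 35 were called higher and 9 lower, beside 3.21% and 4.98%. The median there was -0.42, beside -0.01 for all genes.

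Genes of Toll-like receptor signalling, with the kinases TAK1 and TBK1, and of inflammasomes were taken as a single list. Trim30a, Trim12c and Trim11 are known to act in these pathways. The listed genes showed little difference in B-1 barcodes. Of 23 listed genes 20 reached 10 CPM and 0 were called in either direction, beside 1.78% of all genes higher and 0.684% lower. Their median log2 ratio was 0.01, beside 0.04 for all genes. The highest were Casp1 at 1.26, Tbk1 at 1.25 and Tab2, the adaptor targeted by Trim30a, at 1.19. The lowest were the receptor-associated kinase gene Irak4 at 0.777 and the adaptors Traf3 at 0.863 and Traf6 at 0.877. In B-2 barcodes 0 of 20 were called, beside 0.863% of all genes higher and 0.703% lower. There 17 ratios were below 1, with a median log2 ratio of -0.11 beside -0.01 for all genes. In T barcodes 0 of 19 were called, beside 3.05% higher and 1.01% lower. In macrophage barcodes 1 of 20 was called higher and 2 lower, beside 3.23% and 3.47% of all genes. In dendritic barcodes 3 of 20 were called higher and 0 lower, beside 3.21% and 4.98%. Among the 3 was Tab2 at 67.9 CPM in KO and 32.0 CPM in WT, from 78 and 21 UMIs. Its ratio was 2.12 (1.30 to 3.62).

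Within each library, barcodes were ranked by the share of their UMIs in the interferon list, and the top 10% were set against the rest, a measure that does not use the genotype. Trim30a was higher in the top barcodes of both libraries. In B-1 barcodes it stood at 48.0 CPM in the top and 35.1 CPM in the rest of KO, a ratio of 1.37 (1.06 to 1.74), and at 60.0 and 30.9 CPM in WT, a ratio of 1.94 (1.57 to 2.37). In B-2 barcodes the ratios were 2.07 (1.67 to 2.54) in KO and 3.25 (2.55 to 4.11) in WT, and in T barcodes 1.61 (1.10 to 2.30) in KO and 2.61 (1.88 to 3.57) in WT. Trim12c was also higher in the top barcodes, at 1.55 in KO and 1.74 in WT for B-2, and 1.93 in KO and 1.87 in WT for T barcodes, while its KO B-1 interval, 0.929 to 1.57, held 1. Trim30d had B-1 ratios of 1.36 (0.929 to 1.95) in KO and 2.18 (1.45 to 3.17) in WT.

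Trim34a, Trim12a and Trim11 had ratios of top to rest nearer 1 than those of Trim30a in B-1 and B-2 barcodes of both libraries. In KO B-1 barcodes their intervals overlapped that of Trim30a. In B-1 barcodes Trim34a had ratios of top to rest of 1.03 in KO and 1.12 in WT, and Trim11 1.03 in KO and 0.940 in WT, all with intervals that held 1. Trim12a had 1.25 (1.01 to 1.52) in KO and 1.15 (0.891 to 1.45) in WT. The interval of Trim34a lay above 1 in WT B-2 barcodes, at 1.48 (1.12 to 1.93), that of Trim12a in WT T barcodes, with 57.1 CPM in the top and 38.2 CPM in the rest (1.04 to 2.11), and that of Trim11 in KO T barcodes, at 1.59 (1.07 to 2.28). The top barcodes had fewer UMIs than the rest, with B-1 medians of 4101.5 and 5698.5 in KO and 8028 and 9611.5 in WT, and the part of depth was not tested. A share of the list is a range and not a cell type, and 443 KO and 320 WT B-1 barcodes lay within 10% of the limit.

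The KO to WT ratios were then taken within the ranks. In the top B-1 barcodes Trim30a was at 48.0 CPM in KO and 60.0 CPM in WT, a ratio of 0.799 (0.587 to 1.08), and in the rest the ratio was 1.14 (1.02 to 1.27). Trim11 had 1.88 (1.53 to 2.32) in the top and 1.71 (1.62 to 1.82) in the rest, and Trim12a 1.78 (1.32 to 2.42) and 1.64 (1.49 to 1.80). For Trim34a the values were 1.56 (1.12 to 2.18) and 1.70 (1.54 to 1.87). Trim30d had 1.26 (0.759 to 2.10) in the top and 2.01 (1.67 to 2.43) in the rest, and these intervals overlap.

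**Figure D5:**
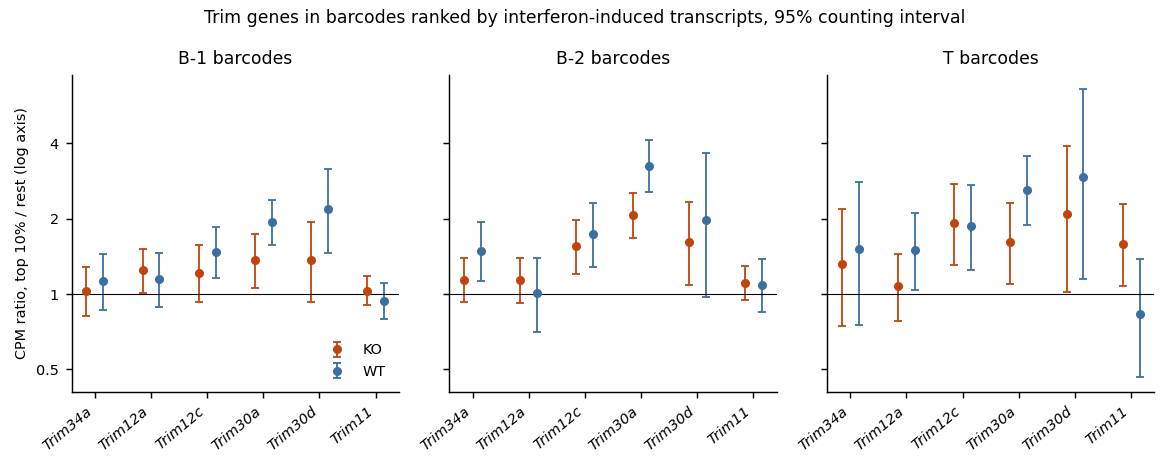
Ratio of CPM in the top 10% of barcodes by interferon-induced transcripts to CPM in the rest (vertical log axis), for each gene in B-1, B-2 and T barcodes, KO left of WT, with 95% counting intervals. Trim30a lies above 1 in all 3 classes and both libraries, and Trim11 lies near 1 in B-1 and B-2 barcodes.

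Over the 12 values of 6 classes in 2 libraries, which share depth and library, genes were ranked by Pearson's r of log2(CPM + 1) with each member among 9351 genes. Trim34a was most like Cd37 (r = 0.96), Phtf2 and Grk6, and Trim11 most like Dgkd (r = 0.96), Rdh12 and Rab4b. The members Trim34a and Trim11 had r = 0.94 with each other, the sixth place for either. Members were picked after KO to WT ratios in B cells had been seen, and the 12 values hold that contrast. The r between members is therefore a description only. Trim12a was most like Sumo2 (r = 0.98), Cetn3 and Srrm1, and Trim12c most like Hist1h1d (r = 0.95), Babam1 and Map3k10, with r = 0.87 between both members. Genes like Trim30a included Dok1 (r = 0.89) and Cox4i1, and Trim30d was most like Mrpl48 (r = 0.86), Phkb and Lpcat2. Trim30a and Trim30d had r = 0.59 with each other, and Trim30a had -0.61 with Trim11.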

How the data were processed

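The deposited matrices hold UMI counts per gene and barcode, made with Cell Ranger 6.1.2 per the file headers. Cell Ranger 6.0.1, Seurat 4.3.0 and mm39 stand in the submitters' processing notes, so the build behind the counts is uncertain. The labels name a 3′ kit, while the paired receptor libraries point to 5′ reads. The deposited receptor files hold counts of reads and UMIs per contig and served only to define clones.

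Barcodes were kept at 200 or more genes and less than 10% mitochondrial UMIs, then gated on markers: B barcodes had at least 5 B-marker UMIs and at most 1 of another lineage, B-1 or B-2 at least 2 subset UMIs and 2 times those of the other subset, T and NK at least 2 UMIs, macrophage and dendritic at least 3. The thresholds were set after marker counts had been seen. UMIs were summed per class and library and scaled to CPM. The 2 expression libraries give no test, and intervals (exact Poisson for CPM, conditional binomial for ratios) cover counting error only. No doublets were removed in the values reported. An alternative without the highest Scrublet scores (scanpy 1.11.5) removed 824 KO and 85 WT gated barcodes. The ratio step was tested on simulated data. SciPy 1.17.1 and pandas 2.3.3 were used.

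Members and gene lists were chosen with earlier results of these data known. Beyond the members, the text names other Trim genes called in B-1 or B-2 barcodes, the 3 highest and 3 lowest of each list in B-1 barcodes, up to 3 expressed neighbours on each side and the 3 genes of most similar pattern, and any gene named after its values were seen is marked. Some genes that meet this rule are not reported here. Promoter windows are those of RefSeq, GRCm38.p6, and no other coordinates are used.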

Additional observations from a re-analysis of the deposited data

How the results depend on the processing

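Of 297 ratios recomputed under the alternatives (stricter gate, gate by dominance of 1 lineage, other scalings, thinning, a mitochondrial limit of 5%, doublet scores, 1 barcode per clone, leaving out the top barcode), 287 stayed inside the counting interval of the reported ratio and 10 moved out of it. Thinning moved Trim34a, Trim12a, Trim12c, Trim30a and Trim11 out in B-1 barcodes, all members but Trim30d. Intervals in NK, macrophage and dendritic barcodes are wide, so staying inside them says little. No ratio called higher turned below 1, while 10 ratios that were not called crossed 1, all but 1 of them in NK, macrophage or dendritic barcodes. Thinning to 1000 UMIs left 2 members called higher in B-1 barcodes (Trim30d and Trim11), 1 in T barcodes and 0 in NK barcodes. A floor of 50 CPM left 3 in B-1, 3 in B-2 and 1 in T barcodes (Trim12a), as the others lie below it by construction. In NK barcodes 2 were called under the stricter gate and 2 by dominance, Trim30d joining at 5.13 (1.28 to 29.5) and 3.08 (1.01 to 11.2). The cause of the changes under thinning and the gates was not tested. The median gene had ratios between 0.990 and 1.03, and scaling to it changed no call. Depth limits NK, macrophage and dendritic barcodes most, where a member had 4 to 105 UMIs in KO. No paired analysis was possible because each genotype has 1 expression library and no test was made.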
